A study of Mus musculus with 71 samples.

Results

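The 10 genes of this account were followed through an allelic series of mouse embryos that lack some or all of the miRNAs of the miR-17-92 cluster. They are 10 of 37620 rows in the deposited table of counts and were chosen by name, with no threshold on a measured value. Aldh1a2, Rdh10 and Dhrs3 govern the making of retinoic acid, Cyp26a1 and Cyp26c1 its breakdown, Crabp2 its transport inside the cell, and Rara, Rarb and Rarg are its receptors, while Greb1l encodes a nuclear coactivator related to the estrogen-induced Greb1. The list was drawn up with earlier results of these libraries known, so the number of its members that changed is a description and not independent evidence about the pathway.

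The libraries are RNA-seq of C57BL/6 embryos of embryonic day 9.5 with 20 to 22 somites, cut into tail bud, heart and what remained of the embryo, here called the remaining embryo. There were 8 genotypes: a wild-type locus, a knockout of the whole cluster (full knockout), loss of miR-17 and miR-20a (Δ17), of miR-18a (Δ18), of miR-19a and miR-19b-1 (Δ19), of miR-92a-1 (Δ92), of miR-17, miR-20a and miR-18a (Δ17,18), and of these 3 together with miR-92a-1 (Δ17,18,92), an allele that keeps only the miR-19 pair. Every group had 3 libraries except Δ17,18,92 in the remaining embryo, which had 2, giving 71 libraries in 24 groups. The labels do not say whether a library came from 1 embryo or from several, or whether embryos were littermates, so the tests measure the spread between these libraries.

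Retinoic acid is made from vitamin A in a pair of oxidation steps, of which the second is carried out in the trunk by ALDH1A2, and it acts by binding RAR and RXR receptors on DNA. CYP26 enzymes oxidise it, which keeps the tail bud, the source of the elongating trunk, low in retinoic acid while FGF and WNT signals hold its progenitors undifferentiated. In the heart the signal patterns the inflow region and the epicardium. A miRNA lowers the level or translation of mRNAs that pair with its seed, the bases 2 to 8 of the mature strand.

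The 6 mature strands of the cluster fall into 4 seed families, and they are shown here because each allele removes the cluster's strands of particular seeds. Related clusters elsewhere in the genome carry strands with the same seeds, which these alleles leave in place. They lie on the plus strand of chromosome 14, from 115043684 to 115044496 in GRCm38.p6 (RefSeq), and capitals mark the seed.
miR-17-5p: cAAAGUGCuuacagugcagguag
miR-20a-5p: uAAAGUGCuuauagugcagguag
miR-18a-5p: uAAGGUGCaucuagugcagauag
miR-19a-3p: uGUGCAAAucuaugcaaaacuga
miR-19b-3p: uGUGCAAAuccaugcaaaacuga
miR-92a-3p: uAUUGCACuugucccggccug
The first 2 strands share a seed, as do the 2 miR-19 strands.

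Sites that pair with bases 2 to 8 of these seeds (7mer-m8 sites, or 8mers where an A follows) were searched in the longest annotated 3′ UTR of each member (GENCODE M21, GRCm38). Greb1l was the only one of the 10 genes with such a site, an 8mer for miR-92 that begins at base 1640 of a UTR of 2457 bases. No member had one for the miR-17, miR-18 or miR-19 family. Among 19798 genes with a UTR, 7.04% had a miR-92 match, 12.6% a miR-17 match, 8.73% a miR-18 match and 12% a miR-19 match, and 30.8% had at least 1 of them. A shorter match, bases 2 to 7 followed by an A (7mer-A1), was looked for after these results were known: Greb1l had 1 for miR-19 and Rarb had 1 for miR-17. In the coding sequence of the same transcripts, 7mer-m8 or 8mer matches were found in Greb1l (2 for miR-17 and 1 for miR-92), Cyp26c1 (2 for miR-18) and Cyp26a1 (1 for miR-18). The coding sequences searched ran from 372 bases in Dhrs3 to 5742 in Greb1l. The shares of all genes with a 7mer-A1 or a coding match were not counted, so how common such matches are is not known here. A match is a run of letters and does not show that a miRNA binds there.

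The cis elements through which retinoic acid receptors act are direct repeats of a short half-site, and 2 members carry one close to the start of transcription. A repeat of GTTCA with 6 bases between the copies (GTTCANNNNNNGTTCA, both strands) was found in the 300-base windows of Rarb and of Cyp26a1, from 250 bases before to 50 after the start, and in 25 of 32851 promoter windows of the same length (0.0761%). The element of Rarb lies 52 bases before the start in the window chr14:16575427-16575726 (GRCm38.p6, gene on the minus strand). That of Cyp26a1 lies 32 bases before the start in the window chr19:37697558-37697857 (gene on the plus strand), on the strand opposite to the gene. Each is shown 5′ to 3′ on the strand that reads GTTCA, with the half-sites in capitals.
Rarb: ggaaggGTTCAccgaaaGTTCActcgc
Cyp26a1: aaattaGTTCAcccaaaGTTCAtcttt
Windows for Rdh10, Crabp2 and Greb1l were not used here, and the windows of the other 5 members held none of the 6 direct-repeat forms searched, that is repeats of this half-site, of its variant GGTCA, or of one of each, with 6 or 3 bases between the copies and on both strands. Such a form was present in 0.645% of all windows.

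Library totals ran from 13532012 to 27477273 counts with a median of 21103719. The 6 rows of the hairpins of the cluster had 0 counts in all 71 libraries, so they could not check the labels. The host transcript Mir17hg was higher in the full knockout than in wild type in each tissue, at 342 to 349 CPM against 105 to 137 CPM in the tail bud, and its row does not show whether the hairpins are gone. The tissue labels were checked on defining genes: tail bud and presomitic mesoderm markers summed to 954 to 1224 CPM in the tail bud against 48.1 to 79.6 CPM in the heart, and cardiomyocyte markers to at least 29271 CPM in the heart against at most 27.0 CPM in the tail bud. A few libraries stood apart. The heart library Δ17,18 replicate 2 had cardiomyocyte markers at 99372 CPM against a heart median of 36166 CPM, wild-type tail bud replicate 3 had a cardiomyocyte sum of 27.0 CPM where the tail bud median was 13.9 CPM, and visceral endoderm markers in the remaining embryo ran from 37.6 to 782 CPM across libraries. Results that rest on one of these libraries are given with and without it.

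In wild type the pathway was laid out differently in each tissue. Levels are given as CPM, counts scaled to library size and composition (TMM), and, where genes are compared with each other, as CPM per kb of exons. The gene for the synthesising enzyme, Aldh1a2, had 69.4, 68.8 and 67.2 CPM in the 3 libraries of the remaining embryo, 31.6, 43.7 and 49.4 CPM in the tail bud, and 1.64, 1.11 and 1.84 CPM in the heart. The 3 tissues did not overlap, and the heart was lower than the remaining embryo by 5.5 ± 0.2 on the log2 scale (± SE, here and below; edgeR quasi-likelihood test, Benjamini-Hochberg adjusted p = 1.47e-10). The gene for the degrading enzyme of the tail bud, Cyp26a1, ran the other way: 76.1, 86.2 and 95.8 CPM in the tail bud, 6.43, 6.99 and 7.14 CPM in the remaining embryo and 3.05, 2.77 and 1.54 CPM in the heart. The tail bud was 3.64 ± 0.14 log2 units above the remaining embryo (edgeR adjusted p = 2.71e-09). Cyp26c1, which degrades retinoic acid in the hindbrain and head, was highest in the remaining embryo, at 27.0, 20.8 and 21.0 CPM against 4.08, 4.26 and 4.44 CPM in the tail bud and 0.273, 0.277 and 0.237 CPM in the heart. Its counts in the heart averaged 4.67 in wild type and fell to 2 in the lowest of all 24 heart libraries, so those values are imprecise.

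**Figure D1:**
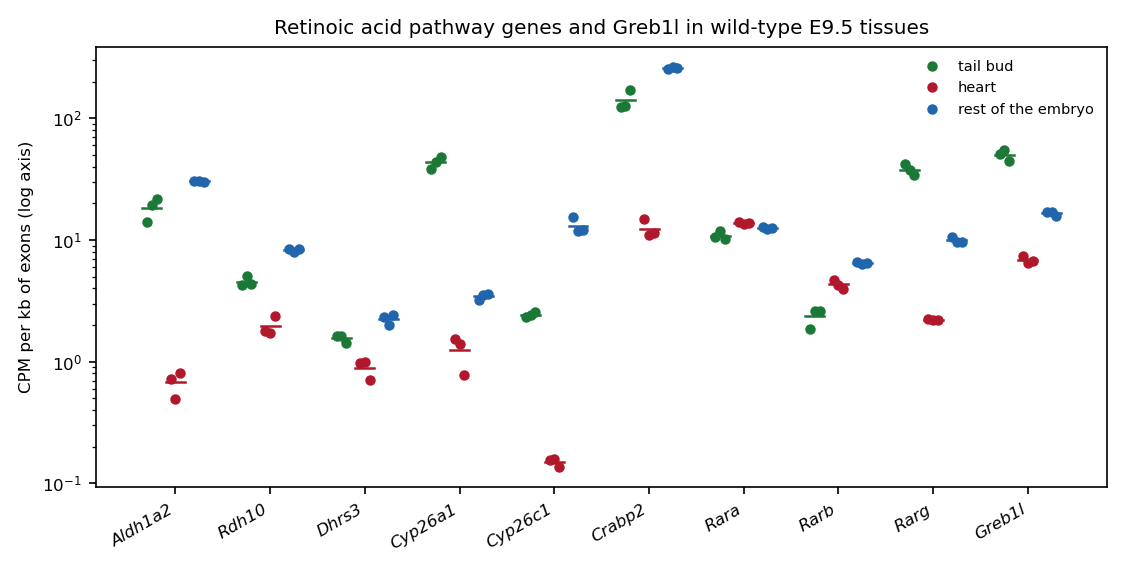
Level of each gene in CPM per kb of exons (log axis) in the 9 wild-type libraries; points are libraries, bars the mean of 3 in the tail bud (green), heart (red) and remaining embryo (blue). Cyp26a1, Rarg and Greb1l are highest in the tail bud, Aldh1a2, Cyp26c1 and Crabp2 in the remaining embryo, and Rara lies between 10.9 and 13.7 CPM per kb on average in all 3 tissues.

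The receptors divided by tissue. Rarg had 179, 159 and 146 CPM in the tail bud, 44.9, 41.0 and 41.1 CPM in the remaining embryo and 9.59, 9.38 and 9.36 CPM in the heart. The heart was 4.10 ± 0.09 log2 units lower than the tail bud (edgeR adjusted p = 6.39e-13). Rarb showed the opposite order between those tissues, with 24.9, 22.4 and 20.9 CPM in the heart against 9.82, 13.7 and 13.8 CPM in the tail bud, a difference of 0.87 ± 0.12 (edgeR adjusted p = 3.36e-05), and it was highest in the remaining embryo at 35.0, 33.1 and 34.0 CPM. Rara was the most even member. It had 60.8, 58.7 and 60.5 CPM in the heart, 56.2, 54.2 and 54.4 CPM in the remaining embryo and 46.6, 51.5 and 44.2 CPM in the tail bud. Heart and remaining embryo did not overlap for Rara, and the difference did not pass the test (0.11, 95% interval -0.02 to 0.24, edgeR adjusted p = 0.157, and 0.152 with the replicate number as a block), whereas the heart exceeded the tail bud by 0.33 ± 0.07 (edgeR adjusted p = 6.47e-04). Per kb of exons, Rarg led the 3 receptor genes in the tail bud (37.9 ± 4.0, SD, n = 3) ahead of Rara (10.9 ± 0.84) and Rarb (2.36 ± 0.43). In the heart the order was Rara (13.7 ± 0.26), Rarb (4.31 ± 0.39) and Rarg (2.22 ± 0.031). The remaining embryo had Rara (12.6 ± 0.26), Rarg (9.94 ± 0.53) and Rarb (6.46 ± 0.18) in this order, and in none of the 3 tissues did 2 receptors overlap.

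Crabp2, which carries retinoic acid to the receptors in the nucleus, was the highest member per kb in the tail bud (141 ± 26 CPM per kb, SD, n = 3) and in the remaining embryo (260 ± 4.1). In the heart its 12.4 ± 2.1 did not differ from the 13.7 ± 0.26 of Rara beyond the spread. Rdh10, the retinol dehydrogenase of the first step, followed Aldh1a2 with 35.0, 33.2 and 35.4 CPM in the remaining embryo, 17.7, 20.9 and 18.0 CPM in the tail bud and 7.41, 7.10 and 9.83 CPM in the heart. Dhrs3, the reductase that turns retinal back into retinol, was the lowest member per kb in the tail bud (1.55 ± 0.12) and in the remaining embryo (2.25 ± 0.23). Greb1l had 556, 608 and 494 CPM in the tail bud, 187, 186 and 175 CPM in the remaining embryo and 81.2, 70.9 and 73.4 CPM in the heart, and the tail bud was 1.59 ± 0.08 log2 units above the remaining embryo (edgeR adjusted p = 9.99e-09). Its tail bud level of 50.2 ± 5.2 CPM per kb overlapped the 43.4 ± 5.0 of Cyp26a1. Both genes stood below Crabp2 there.

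Of the 10 members, 10 differed between heart and tail bud (2 higher in the heart, Rara and Rarb), 9 between heart and remaining embryo, all lower in the heart, and 10 between tail bud and remaining embryo (3 higher in the tail bud, Cyp26a1, Rarg and Greb1l). Over all 16922 genes tested, 68.6%, 68.1% and 29.8% were called in these comparisons, so a call between tissues is common. The median of the members was -3.20 in heart against tail bud, where that of all genes was -0.03, and -1.80 in heart against remaining embryo, where that of all genes was -0.02. In tail bud against remaining embryo these medians were -0.63 and 0.01. The calls of Rara and Dhrs3 between tail bud and remaining embryo were the least firm: without wild-type remaining embryo replicate 3 the adjusted p was 0.0726 for Dhrs3 and 0.0598 for Rara, and replicate 1 of that group ended both calls as well (0.0531 and 0.082). The call of Rara also ended without replicate 2 of that group (0.0605), without tail bud replicate 1 (0.0767) and with no filter on low counts (0.0544). In bulk tissue fewer cells with a transcript and less transcript per cell cannot be told apart.

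Other genes of the pathway were compared between the same tissues. Of 13 tested genes of retinoid handling (other alcohol and retinal dehydrogenases, retinol-binding proteins, CYP26B1 and the like), 11 were lower and 0 higher in the heart than in the remaining embryo, with a median of -2.91, where 34.1% of all genes were lower. The 12 other retinoid receptors and cofactors were divided, with 3 higher and 6 lower in the heart and a median of -0.25. Of 16 FGF and WNT genes of the caudal end, 15 were higher in the tail bud than in the remaining embryo and 0 lower, with a median of 2.04, where 13.2% of all genes were higher. Of 17 tested genes known to respond to retinoic acid, 9 were higher and 7 lower in the tail bud. These lists were written with the earlier results known.

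Loss of the whole cluster moved 1 member. Greb1l rose in the tail bud and in the remaining embryo, and the 9 genes that make, degrade, carry or bind retinoic acid passed the test in none of the 3 tissues. Of the list, 1 of 10 members was called in the tail bud where 10.4% of all 17009 genes tested were, in the remaining embryo 1 of 10 where 6.66% were, and in the heart 0 of 10 where 3.91% were. These shares lie near those of all genes. An unadjusted edgeR p under 0.05 was held by 2 members in the tail bud, 4 in the heart and 3 in the remaining embryo. The share of all genes under that threshold is not given here, so these counts cannot be read as particular to the members. In the heart DESeq2 too called 0 of 10.

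The tail bud values of Greb1l were 556, 608 and 494 CPM in wild type and 734, 724 and 723 CPM in the full knockout. All 3 knockout libraries lay above every wild-type library. The difference was 0.39 ± 0.06 log2 units, 1.31-fold (edgeR adjusted p = 2.32e-04), and it kept its call in all 30 alternatives run, with values from 0.32 to 0.46 and an adjusted p of at most 0.0488. Values in the remaining embryo were 187, 186 and 175 CPM in wild type and 255, 220 and 225 CPM in the full knockout, again without overlap. The difference there was 0.35 ± 0.08 (edgeR adjusted p = 0.0157). It did not stay called without wild-type replicate 3 (0.32, adjusted p = 0.0694) or without knockout replicate 1 (0.28, adjusted p = 0.0773). In the heart the groups overlapped, with 81.2, 70.9 and 73.4 CPM in wild type and 89.6, 85.2 and 72.6 CPM in the full knockout (0.16, 95% interval -0.04 to 0.36, edgeR adjusted p = 0.451). The test of whether the knockout effect differed between tissues called no member, and for Greb1l gave an adjusted p of 0.784. That test called 0.0399% of 17548 genes, so the rise of Greb1l was not shown to differ between tissues.

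**Figure D2:**
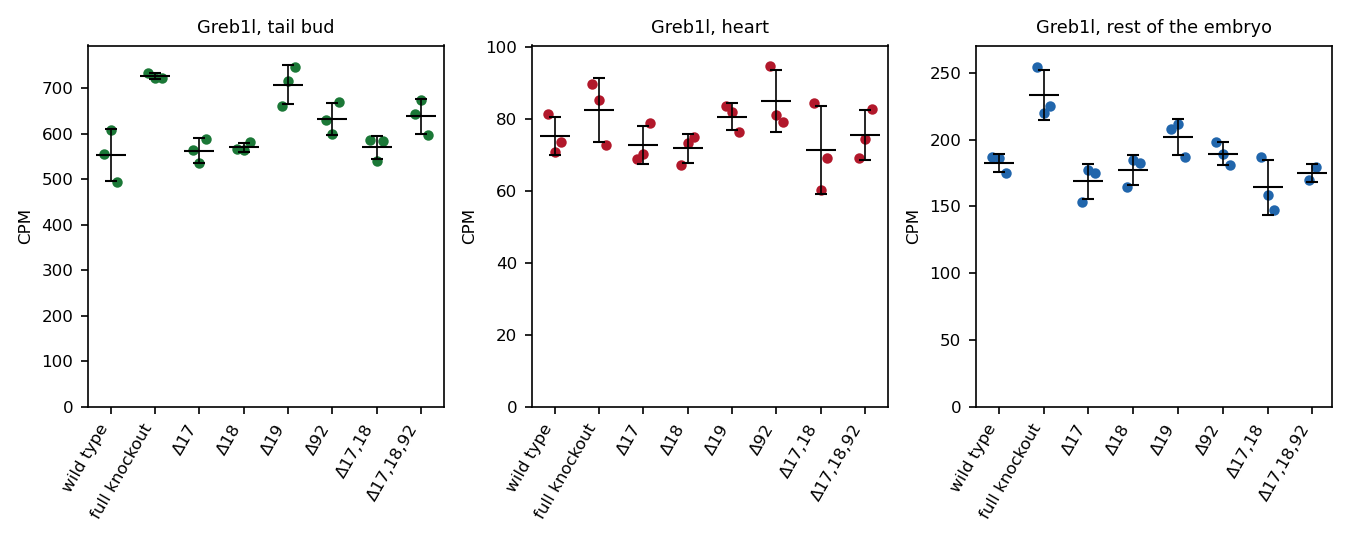
Greb1l in CPM by genotype in the tail bud, heart and remaining embryo; points are libraries, black bars the mean and SD of 3 libraries (2 for Δ17,18,92 in the remaining embryo). In the tail bud the full knockout (723 to 734 CPM) and Δ19 (662 to 746 CPM) lie above the wild-type libraries (494 to 608 CPM), and in the remaining embryo the full knockout (220 to 255 CPM) lies above all of wild type (175 to 187 CPM).

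Among the 4 single-family alleles Greb1l was called in Δ19 alone, and the differences between these alleles were not tested. All are set against the same wild-type libraries. Δ19 tail buds had 662, 717 and 746 CPM, all above the wild-type libraries, a difference of 0.35 ± 0.06 (edgeR adjusted p = 0.00377). Here 1 of 10 members was called where 1.03% of all genes were. The call ended when only the wild-type and Δ19 libraries were fitted (0.36, adjusted p = 0.418), a fit that has the spread of 2 groups alone. Δ92 tail buds had 630, 599 and 670 CPM and overlapped wild type (0.19, 95% interval 0.06 to 0.31, edgeR adjusted p = 0.255). Δ17 tail buds had 565, 535 and 590 CPM and Δ18 tail buds 566, 565 and 583 CPM, within the range of wild type. Δ17,18 had 586, 541 and 584 CPM, also within it. Δ17,18,92, which keeps the miR-19 pair, had 643, 675 and 599 CPM and was not called (0.20, edgeR adjusted p = 0.064), although it was called without wild-type replicate 2 (adjusted p = 0.0105), without its own replicate 3 (adjusted p = 0.0354) and by DESeq2 (adjusted p = 0.0285).

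A fit of 4 additive terms, 1 for the loss of the cluster's strands of each seed family, used all 24 tail bud libraries. Loss of miR-19 raised Greb1l by 0.27 ± 0.04 (edgeR adjusted p = 2.65e-05) and loss of miR-92 by 0.14 ± 0.04 (edgeR adjusted p = 0.0212). In each of these terms 1 of 10 members was called, against 5.33% of all genes for miR-19 and 3.66% for miR-92. The miR-19 term kept its call in all 29 alternatives, with values from 0.24 to 0.28. The miR-92 term did not: it ended without Δ92 replicate 3 (0.11, adjusted p = 0.104), without Δ17,18 replicate 2 (adjusted p = 0.0522) and without Δ17,18,92 replicate 2 (adjusted p = 0.0506). In the remaining embryo the miR-19 term for Greb1l was 0.28 ± 0.05 (edgeR adjusted p = 0.00166), kept in all 28 alternatives, in a comparison that called 6.59% of all genes. Δ19 alone was at 208, 212 and 187 CPM there, not called against wild type. The miR-17 and miR-18 terms called no member in either tissue, and in the heart 0 of 40 pairs of member and term were called by edgeR, where 2.41% of such pairs were over all genes, against 3.69% in the tail bud and 5% in the remaining embryo. An unadjusted edgeR p under 0.05 was held by 9 of 40 such pairs in the tail bud, 7 in the heart and 6 in the remaining embryo. The share of all genes under that threshold is not given here. In the heart DESeq2 called 1 pair, Rara in the miR-19 term (0.15, DESeq2 adjusted p = 0.0462, edgeR adjusted p = 0.0771).

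The allele that keeps the miR-19 pair can be set against the full knockout, which lacks it. In the remaining embryo Greb1l went from 170 and 180 CPM in Δ17,18,92 to 255, 220 and 225 CPM in the full knockout, a difference of 0.43 ± 0.09 (edgeR adjusted p = 0.0247, in a comparison that called 1.78% of all genes). With 2 libraries on one side this rested on single libraries: without either Δ17,18,92 library the adjusted p was 0.186 or 0.188, and without knockout replicate 1 it was 0.104. In the tail bud the same step was 0.19 ± 0.06 with no overlap between groups, and did not pass the test (edgeR adjusted p = 0.293, 0.341% of all genes called). The test of departure from additive terms called 0 of 10 members in each tissue by edgeR, with 0, 3 and 1 members at an unadjusted p under 0.05 in tail bud, heart and remaining embryo, and 0 by DESeq2. It called 0.0176%, 0.0597% and 0.103% of all genes there by the adjusted p, and the share under the unadjusted threshold is not given here.

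Greb1l followed the tail bud markers across libraries, as did the CYP26 genes. The 9 marker genes, none at 0 in any tail bud library, summed to 1071, 987 and 975 CPM in wild type and 1224, 1040 and 1149 CPM in the full knockout, and to 1089, 1078 and 1153 CPM in Δ19. Correlations were run not on this sum but on a marker score, the mean over the list of log2 CPM with the tissue mean removed. The members entered as log2 CPM too. Libraries were permuted without regard to genotype, so these p-values do not separate differences between genotypes from those within them. Across the 24 tail bud libraries Greb1l followed this score with a Pearson r of 0.69 (permutation p = 1.4e-04, 0.0063 adjusted over 270 correlations) and a Spearman rho of 0.67 (permutation p = 5.5e-04, adjusted p = 0.0292), and r was 0.71 without the 2 libraries farthest from the median. Cyp26c1 followed it too (r = 0.61, permutation p = 0.0013, adjusted p = 0.0315; rho = 0.61, permutation p = 0.00177, adjusted p = 0.0442; r = 0.50 without the 2 farthest). Cyp26a1 did so by r (0.59, permutation p = 0.00249, adjusted p = 0.0477; r = 0.43 without the 2 farthest) and not by rho (0.51, permutation p = 0.0124, adjusted p = 0.152). In the remaining embryo the same markers summed to 31.7, 33.3 and 31.9 CPM in wild type and 42.0, 31.7 and 38.7 CPM in the full knockout, with Msgn1, the presomitic regulator, at 0 in 12 of 23 libraries. Of the 9 markers, 2 were themselves called in the knockout tail bud, Tbx6 (0.26) and Dll3 (0.36), where 10.4% of all genes were. The 8 primitive erythroid markers, all detected, summed to less in the knockout tail buds (768, 3052 and 3425 CPM) than in wild type (3623, 5426 and 4632 CPM), without overlap, with a median difference of -0.81 and none called by edgeR. In Δ19 tail buds, where Greb1l was also called, they summed to 9115, 3427 and 5759 CPM. The correlation of Greb1l with the score of the erythroid markers did not pass the adjustment (r = -0.43, permutation p = 0.0374, adjusted p = 0.253; rho = -0.42, permutation p = 0.0421, adjusted p = 0.271; r = -0.27 without the 2 farthest). The part of these markers in the result was not tested.

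Over all 71 libraries, after the mean of each tissue was removed, the genes most like Greb1l among 12522 included Impdh1 (r = 0.72) and Vps37a (r = 0.72). These are correlations across libraries that share genotypes and tissues, given without a test. Its correlation with the 9 retinoid genes was weak, from -0.18 for Rarb to 0.26 for Cyp26a1.

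Over the 7 mutants, 2 of 70 pairs of member and genotype were called in the tail bud, both of them Greb1l, 0 of 70 in the heart by edgeR and 2 of 70 in the remaining embryo, against 3.94%, 1.14% and 3.02% of such pairs over all genes. An unadjusted edgeR p under 0.05 was held by 15 of 70 pairs in the tail bud, 10 in the heart and 6 in the remaining embryo. In the heart DESeq2 called 1. The shares of all genes under that threshold, or called by DESeq2, are not given here. Outside Greb1l the single call against wild type was that of Cyp26a1, which was lower in Δ17 in the remaining embryo. It had 6.43, 6.99 and 7.14 CPM in wild type and 4.82, 5.11 and 4.55 CPM in Δ17. The groups did not overlap, and the difference was -0.51 ± 0.13 (edgeR adjusted p = 0.0254, 1.56% of all genes called). The call ended without any 1 of the 3 Δ17 libraries (adjusted p from 0.06 to 0.134) and without wild-type replicate 2 (0.108) or 3 (0.123), while the value stayed between -0.56 and -0.48. The other alleles without the miR-17 family stood at 6.31, 5.17 and 5.38 CPM (full knockout, -0.29, adjusted p = 0.195), 7.05, 5.79 and 5.60 CPM (Δ17,18) and 5.55 and 8.03 CPM (Δ17,18,92). The miR-17 term for Cyp26a1 was -0.24 ± 0.08 and not called by edgeR (adjusted p = 0.065), while DESeq2 called it (adjusted p = 0.0498). In the tail bud, where Cyp26a1 is highest, every genotype overlapped wild type (76.1 to 95.8 CPM) and the full knockout had 109, 94.6 and 84.7 CPM (0.15, 95% interval -0.14 to 0.44).

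**Figure D3:**
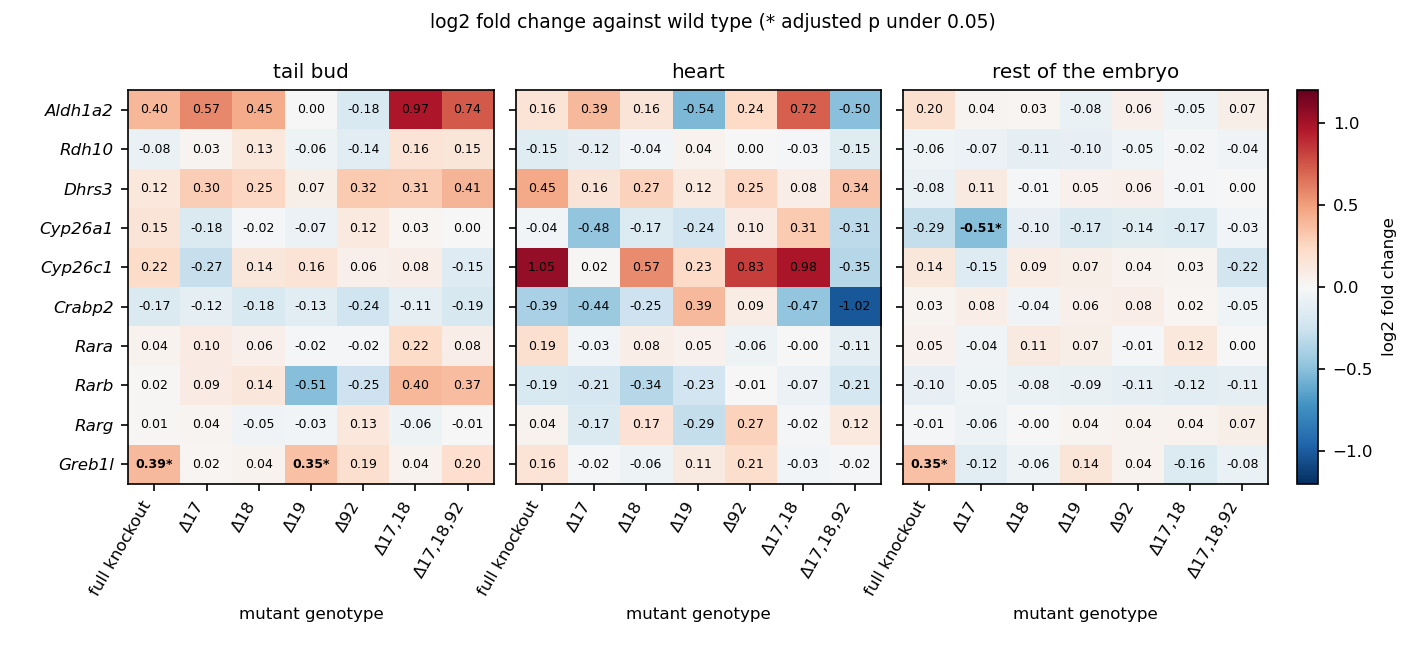
Log2 fold change against wild type of each gene (rows) in the 7 mutant genotypes (columns) in the 3 tissues; red is higher and blue lower in the mutant, and bold values with an asterisk have an adjusted p under 0.05 (edgeR). The asterisks are Greb1l in the full knockout and Δ19 tail buds and in the full knockout remaining embryo, and Cyp26a1 in Δ17 remaining embryo. Large uncalled values lie in the rows of Aldh1a2, Cyp26c1 and Crabp2 (-1.02 in the Δ17,18,92 heart).

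Aldh1a2 ranged from 28.2 to 94.3 CPM over the 24 tail bud libraries. Δ17,18 had 59.9, 94.3 and 91.3 CPM, all above the wild-type libraries (31.6, 43.7 and 49.4 CPM), a difference of 0.97 that was not called by edgeR (adjusted p = 0.0868) and was called by DESeq2 (adjusted p = 0.0382). The full knockout had 37.5, 68.8 and 58.8 CPM and overlapped wild type (0.40, 95% interval -0.28 to 1.08). In the remaining embryo the full knockout had 87.2, 75.5 and 72.9 CPM against 69.4, 68.8 and 67.2 CPM, with no overlap and no call (0.20, edgeR adjusted p = 0.176). Fitted with those 2 groups alone the adjusted p was 0.0401. In the heart Aldh1a2 was lower in Δ17,18,92 (1.18, 0.596 and 1.54 CPM) than in Δ17,18 (2.24, 3.13 and 1.97 CPM) by 1.22 ± 0.30 (edgeR adjusted p = 0.0478, 0.693% of all genes called). The lowest heart library held 14 counts of the gene, and 19 of 28 alternatives ended this call. Without Δ17,18 replicate 2, the heart library with the excess of cardiomyocyte markers, it was -0.96 (adjusted p = 0.294). Neither genotype was called against wild type, at 1.64, 1.11 and 1.84 CPM.

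In the tail bud Aldh1a2, Rdh10 and the receptor genes Rarb and Rara followed markers listed for the epicardium and sinus venosus. Which cells of the tail bud carried these markers was not tested. Of the 6 epicardium and sinus venosus markers 5 were detected there, with Shox2 at 0 in all 71 libraries, and their sum ran from 12.1 to 22.3 CPM over 24 libraries, with 15.8, 16.9 and 16.3 CPM in wild type, 19.3, 22.0 and 22.3 CPM in Δ17,18 and 12.1, 13.9 and 13.0 CPM in Δ19. Aldh1a2 correlated with the score of these markers, the mean log2 level described above, at r = 0.81 (permutation p = 2.0e-05, adjusted p = 0.0018 over 270 correlations; rho = 0.80, permutation p = 2.0e-05, adjusted p = 0.0027; r = 0.75 without the 2 farthest libraries). Rarb did so at r = 0.81 (permutation p = 1.0e-05, the smallest that the permutations can give, adjusted p = 0.0018; rho = 0.78, permutation p = 1.0e-05, adjusted p = 0.0027; r = 0.76 without the 2 farthest). For Rara it was r = 0.73 (permutation p = 5.0e-05, adjusted p = 0.00324; rho = 0.73, permutation p = 1.6e-04, adjusted p = 0.0108; r = 0.63 without the 2 farthest), and for Rdh10 r = 0.64 (permutation p = 6.4e-04, adjusted p = 0.021; rho = 0.62, permutation p = 0.0014, adjusted p = 0.0442; r = 0.56 without the 2 farthest). Aldh1a2 also followed the second heart field and foregut list (r = 0.58, permutation p = 0.00265, adjusted p = 0.0477; rho = 0.65, permutation p = 6.5e-04, adjusted p = 0.0292; r = 0.71 without the 2 farthest). Somite and sclerotome markers ran from 47.9 to 153 CPM in the same libraries. They rose with Aldh1a2 (r = 0.71, permutation p = 6.0e-05, adjusted p = 0.00324; rho = 0.62, permutation p = 0.00156, adjusted p = 0.0442; r = 0.64 without the 2 farthest) and fell with Rarg (r = -0.77, permutation p = 2.0e-05, adjusted p = 0.0018; rho = -0.77, permutation p = 6.0e-05, adjusted p = 0.0054; r = -0.72 without the 2 farthest). The permutations again took no account of genotype, and the part of these markers in the differences between genotypes was not tested.

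**Figure D4:**
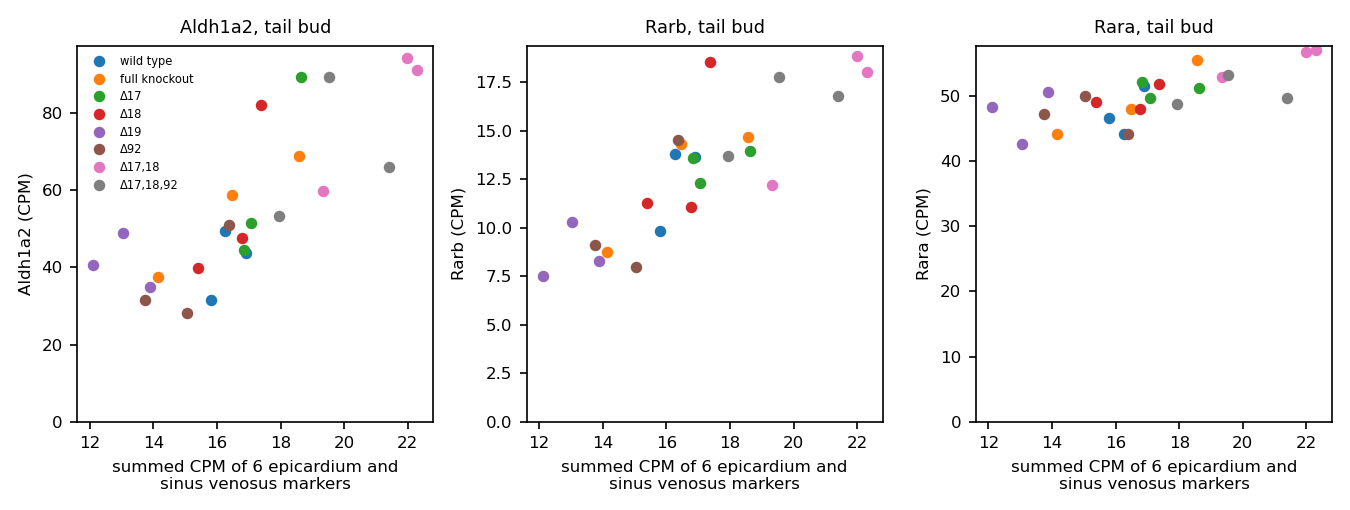
Aldh1a2, Rarb and Rara in CPM (vertical axes) against the summed CPM of 6 epicardium and sinus venosus markers (horizontal axes) in the 24 tail bud libraries, coloured by genotype. On the log2 scale the 3 genes correlated with the mean log2 score of these markers (r of 0.81, 0.81 and 0.73), which is not the plotted sum. The Δ19 libraries have sums of 12.1 to 13.9 CPM and the Δ17,18 libraries of 19.3 to 22.3 CPM.

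Rarb in the tail bud had 9.82, 13.7 and 13.8 CPM in wild type, 7.5, 8.28 and 10.3 CPM in Δ19 and 12.2, 18.8 and 18.0 CPM in Δ17,18. Both alleles overlapped wild type and neither was called. Over the 71 libraries, with tissue means removed, Rarb was most like Meis1 (r = 0.80), Prrx2 (r = 0.79) and Efnb3 (r = 0.76), and among the members it was most like Aldh1a2 (r = 0.63). Aldh1a2 was most like Ddr2 (r = 0.66), Pcdh8 (r = 0.66) and an unnamed gene (r = 0.64), and Cyp26a1 was most like Pitx1 (r = 0.60), T (r = 0.58) and Hoxc8 (r = 0.57).

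Crabp2 in the tail bud turned on 1 library. Wild type had 164, 168 and 226 CPM, and the other 21 tail bud libraries lay between 154 and 179 CPM. The high value is that of wild-type replicate 3, the library with cardiomyocyte markers at 27.0 CPM against 11.7 and 13.7 CPM in replicates 1 and 2; Δ17,18 replicate 1 had 26.6 CPM. The knockout difference was -0.17 (edgeR adjusted p = 0.163). It was 0.00 without that library (adjusted p = 0.994), and -0.25 (adjusted p = 0.026) and -0.24 (adjusted p = 0.038) without wild-type replicate 1 or 2. In the heart Crabp2 had 19.6, 14.4 and 15.0 CPM in wild type, 14.8, 11.8 and 10.3 CPM in the full knockout, and 5.71, 5.83 and 13.3 CPM in Δ17,18,92. This last group lay below wild type without overlap (-1.02, 95% interval -1.55 to -0.49) and was not called by edgeR (adjusted p = 0.065). It was called by DESeq2 (adjusted p = 0.0119), and without its replicate 3 the value was -1.53 (adjusted p = 2.54e-04). Crabp2 in the remaining embryo lay between 320 and 383 CPM in all 23 libraries, and its knockout difference was 0.03 (95% interval -0.05 to 0.11).

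**Figure D5:**
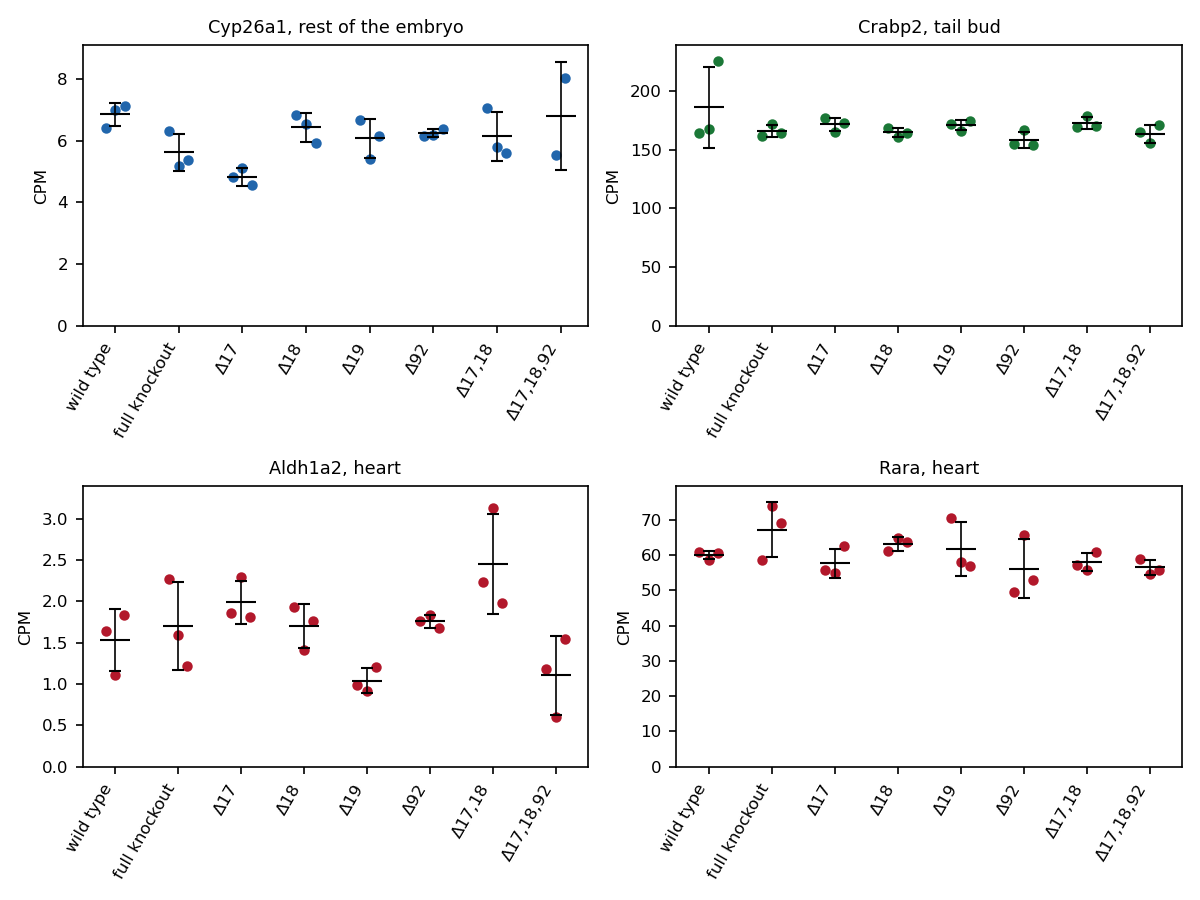
Cyp26a1 in the remaining embryo, Crabp2 in the tail bud, and Aldh1a2 and Rara in the heart, in CPM by genotype; points are libraries and black bars the mean and SD. Δ17 is lowest for Cyp26a1 (4.55 to 5.11 CPM), 1 wild-type library at 226 CPM stands apart for Crabp2, Aldh1a2 in the heart lies between 0.596 and 3.13 CPM, and for Rara the full knockout libraries run from 58.6 to 73.9 CPM and those of Δ17,18,92 from 54.7 to 58.9 CPM.

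Of the receptor genes, Rara was called once between genotypes. In the heart it had 58.6, 73.9 and 69.2 CPM in the full knockout and 58.9, 54.7 and 55.9 CPM in Δ17,18,92. The groups overlapped by 1 library, and the difference was 0.31 ± 0.08 (edgeR adjusted p = 0.0271, 3.76% of all genes called). The call ended without knockout replicate 2 (0.24, adjusted p = 0.147) or 3 (adjusted p = 0.0725) and without Δ17,18,92 replicate 2 (adjusted p = 0.0859) or 3 (adjusted p = 0.11). Against the wild-type hearts, at 60.8, 58.7 and 60.5 CPM, the full knockout was not called (0.19, 95% interval 0.04 to 0.34, edgeR adjusted p = 0.178). Tail bud Rara was higher in each Δ17,18 library (52.9, 56.8 and 57.0 CPM) than in wild type (46.6, 51.5 and 44.2 CPM), by 0.22 and without a call (edgeR adjusted p = 0.065, DESeq2 adjusted p = 0.0457). Rarg, the main receptor gene of the tail bud, had 173, 156 and 163 CPM in the full knockout against 179, 159 and 146 CPM, a difference of 0.01 (95% interval -0.14 to 0.17). Its interval was -0.12 to 0.10 in the remaining embryo and -0.28 to 0.36 in the heart.

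The other members gave no call against wild type in any genotype or tissue. Dhrs3 came nearest in Δ17,18,92 tail buds, with 6.72, 5.76 and 5.80 CPM against 4.74, 4.76 and 4.13 CPM, with no overlap (0.41, 95% interval 0.16 to 0.65, edgeR adjusted p = 0.0575). Rdh10 in the full knockout lay within 95% intervals of -0.28 to 0.12 in the tail bud, -0.44 to 0.14 in the heart and -0.19 to 0.08 in the remaining embryo. Cyp26c1 in the heart was at 0.781, 0.425 and 0.458 CPM in the full knockout against 0.273, 0.277 and 0.237 CPM, a difference of 1.05 on few counts (95% interval 0.07 to 2.04, edgeR adjusted p = 0.275). For the 9 members not called in the knockout, the intervals together spanned -0.53 to 0.39 in the remaining embryo and -0.48 to 1.08 in the tail bud. For the 10 in the heart they spanned -0.91 to 2.04.

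The counts of other pathway genes in the full knockout, from lists written with the earlier results known, stand beside 10.4% of all genes called in the tail bud, 3.91% in the heart and 6.66% in the remaining embryo. Of the 16 other retinoid handling genes, 12 were tested in the tail bud and 1 fell, Adh5, an alcohol dehydrogenase (-0.20, edgeR adjusted p = 0.046). Adh5 was also the only one of 12 tested to fall in the heart (-0.15, edgeR adjusted p = 0.0378). Of 12 other receptors and cofactors, 3 were called in the tail bud: 2 rose, the nuclear receptor coactivators Ncoa3 (0.31, edgeR adjusted p = 6.68e-04) and Ncoa2 (0.23, edgeR adjusted p = 0.00392), and 1 fell, Rxra, a partner of the RARs (-0.19, edgeR adjusted p = 0.0425). In the remaining embryo Rxrb, another partner of the RARs, rose (0.18, edgeR adjusted p = 0.017). The medians of these 2 lists lay between -0.01 and 0.12 in the 3 tissues, against 0.00 to -0.01 for all genes.

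Among genes known to respond to retinoic acid, 3 of 17 tested rose in the knockout tail bud and 0 fell, where 5.93% of all genes rose: the trunk Hox genes Hoxa5 (0.41 ± 0.08, edgeR adjusted p = 0.00109), Hoxb5 (0.39 ± 0.09, edgeR adjusted p = 0.00576) and Hoxb4 (0.32 ± 0.10, edgeR adjusted p = 0.0453). In the knockout heart 0 of the 15 tested were called, with a list median of 0.29 against 0.002 for all genes. The list stands low in that tissue, with a median of -5.2 in wild-type heart against tail bud. In the remaining embryo 1 of 17 fell, Tgm2, a transglutaminase (-0.43 ± 0.10, edgeR adjusted p = 0.00823). Of 16 FGF and WNT genes of the caudal end, 3 rose in the knockout tail bud and 0 fell, against the same 5.93%: Fgf4 (1.66 ± 0.35, edgeR adjusted p = 0.00372), Wnt5a (0.28 ± 0.06, edgeR adjusted p = 0.00651) and Lef1 (0.22 ± 0.06, edgeR adjusted p = 0.0242). In the remaining embryo Lef1 rose (0.20, edgeR adjusted p = 0.0156) and Etv4, a target of FGF signalling, fell (-0.31, edgeR adjusted p = 0.0312). The tail bud medians of these lists were 0.08 and 0.07 against -0.01 for all genes. Some markers of neighbouring cells were also called in that comparison, where 10.4% of all genes were. Pax3 was higher (0.74), 1 of 6 tested in the somite list, as was Tubb3 (0.51), 1 of 5 in the neuron list. Of 7 tested in the second heart field and foregut list, Shh was higher (0.36) and Fgf10 lower (-0.74). Cldn5 was lower (-0.44), 1 of 8 in the endothelium list. The cardiomyocyte, epicardium, erythroid and visceral endoderm lists had 0 called. The part of those markers in these changes was not tested.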

How the data were processed

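RNA-seq of 71 libraries (TRIZOL extraction, 50-base single reads, per the labels' protocols) was used as the deposited table of raw read counts per Ensembl gene. STAR 2.3.0, SAMtools 0.1.14, Subread 1.4.2 with featureCounts, and the builds mm9 and NCBIM37 are named in the submitters' processing notes; strand setting and handling of multiply mapped reads are not given in the sources used here. Symbols came from GENCODE M21 for 32897 of 37620 IDs; rows without a symbol hold 0.839% of counts.

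In R 4.3.3, edgeR 4.0.16 (TMM, filterByExpr, robust quasi-likelihood test, Benjamini-Hochberg over all genes tested, threshold 0.05) was fitted per tissue over 8 genotypes, over the 9 wild-type libraries, and over wild type and knockout in 3 tissues. Intervals are the estimate ± 1.96 SE. DESeq2 1.42.0, other filters and scalings, a replicate block, fits of 2 groups and leaving out each library were the alternatives. Correlations used log2 values with a prior count of 2, averaged over a list's markers after the tissue mean was removed. Their p-values came from 100000 permutations of the libraries of a tissue, made without regard to genotype. No pair of replicates agreed within sampling noise (chi-square over its degrees of freedom at least 2.52). Replicate numbers paired the wild-type tissues (r of deviations 0.153 to 0.63), much less those of the full knockout (-0.0178 to 0.183). They did not pair mutants with wild type. Over all genotypes, 16 of 24 pairs of tissues had every r over 0.1. The main tests took no account of this pairing. On simulated counts for knockout against wild type in the tail bud (16822 genes), 76% of genes changed by 0.5 and 97% of those changed by 1 on the log2 scale were recovered. The changed genes were drawn only from the more abundant genes. These rates therefore do not cover members at low levels, such as Cyp26c1 in the tail bud (median 4.30 CPM).

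The members and lists were chosen with earlier results of these data known. All 10 members are named throughout; of other lists, the genes called in the knockout, up to 4 a list by p-value; and for 4 members the 3 genes most correlated. Some results that these rules select are not reported here.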

Additional observations from a re-analysis of the deposited data

How the results depend on the processing

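The call of Greb1l in the full knockout tail bud and both miR-19 terms held under each alternative run; every other call between genotypes ended under at least 1. Counts below are members called, or pairs of members and comparisons. The shares of all genes called in the alternative fits are not given here. A changed count therefore cannot be told from a fit that calls more or fewer genes in general. With no filter on low counts, edgeR called 1 in the full knockout heart and 2 in the remaining embryo, 5 over the 7 mutants in the heart and 5 in the remaining embryo, 4 between mutants in the heart and 2 in the remaining embryo, and 2 (heart) and 1 (remaining embryo) for departure from additivity. This fit moved p-values far at near-equal differences (Crabp2 in the Δ17,18,92 heart, -1.02 in both, adjusted p = 6.26e-16 against 0.065), so its counts are given with that doubt. DESeq2 gave 5 over the 7 mutants in the tail bud, 1 in the heart, 1 between mutants in the heart, and 1 (heart) and 3 (remaining embryo) for the seed terms. Fits of only 2 groups gave 1 over the 7 mutants in the tail bud and 2 for the full knockout in the remaining embryo. The replicate block gave 1 between mutants in the heart, where Aldh1a2 ended at an adjusted p of 0.0591, and changed no other call; the numbers do not pair mutants with wild type.

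Leaving out 1 library at a time gave 1 to 2 members in the full knockout tail bud and 0 to 1 in the remaining embryo; over the 7 mutants 2 to 6, 0 to 1 and 0 to 2 in tail bud, heart and remaining embryo; for the seed terms 1 to 3, 0 to 1 and 1 to 2; between mutants 0 to 3 in the heart and 0 to 1 in the remaining embryo. Without single libraries, 10 uncalled knockout differences took the opposite sign in 18 fits in all, with ranges in the tail bud of -0.18 to 0.021 (Rdh10), -0.25 to 0.0011 (Crabp2), -0.049 to 0.11 (Rara), -0.13 to 0.21 (Rarb) and -0.044 to 0.10 (Rarg); in the heart of -0.11 to 0.37 (Aldh1a2), -0.37 to 0.017 (Rdh10), -0.39 to 0.29 (Cyp26a1) and -0.059 to 0.12 (Rarg); and in the remaining embryo of -0.035 to 0.033 (Rarg). The causes were not tested. For the leave-one-out counts too, the share of all genes called without each library is not given here. In the heart, single libraries held as few as 2 counts of Cyp26c1 and 14 of Aldh1a2.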
